A study of Mus musculus with 10 samples.

Results

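The genes described here are 43 mouse genes whose products copy the chromosomes, chosen by name as members of the DNA replication machinery and read from a gene table of 46959 entries, in which all 43 were found. They were followed across 5 groups of samples described as B lineage cells, with 2 libraries each. LPS_IL4_SAHA cells were CD43- spleen cells cultured for 48 h with 5 µg/ml lipopolysaccharide (LPS, a bacterial B cell mitogen), 20 ng/ml interleukin 4 (IL4) and 200 nM SAHA (vorinostat, an inhibitor of histone deacetylases), a dose the treatment protocol writes as 200 ng/ml. LPS_IL4 cells had the same culture without SAHA. Both spleen groups came from mice labelled wt with a 129 strain background, although the growth protocol speaks of KOKI mice and BLACK-6 controls. The other 3 groups were femoral B cells of C57BL6 background, taken for RNA without culture: 2KO, which the sample labels do not spell out while the series' text names 5′Eµ/3′RR-deficient mice (Eµ and 3′RR are enhancers of the immunoglobulin heavy chain locus), deltaEmu, whose label gives a deletion of Eµ, and RAG2_deficient, whose mice cannot rearrange antigen receptor genes. All animals were 8 to 10 weeks old, and each library was made from RNA that the series' text describes as pooled, so the p-values measure the spread between pools. As labelled, all 3 femoral groups are mutants, so no femoral comparison below is against a wild type. How the femoral B cells were isolated was not given in the sources used here.

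Replication starts when the origin recognition complex, with Cdc6 and Cdt1, loads the Mcm2 to Mcm7 helicase onto DNA, a step called licensing. Cdc45, the GINS complex and Mcm10 turn the loaded helicase into a working fork, on which polymerase alpha with primase lays primers, polymerases epsilon and delta extend them, the clamp Pcna is loaded by the RFC complex, RPA covers single strands, and Fen1 and Lig1 finish the lagging strand. Most of these genes are switched on together at the entry to S phase by E2F factors. In the B lineage, marrow progenitors divide in bursts between steps of receptor gene assembly, while mature spleen B cells rest until a mitogen such as LPS drives them to divide.

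The promoters are shown because the E2F word is the sequence feature the family is best known for. RefSeq windows on GRCm38.p6, from 250 bases before to 50 after the start, were given for 36 of the 43 members. They were searched on both strands for the words TTTCCCGC, TTTGGCGC, TTTCGCGC and TTTGCCGC, and overlapping words were counted as a single match. At least 1 word was present in 14 of 36 members (38.9%), against 2.60% of 27025 genes with a window and 4.44% of the 10836 of them that were tested across tissues. Windows are printed for the 5 members with a word in the 160 bases before the start and no more than 20 printed bases inside the gene as the deposited table gives it. Each reads 5′ to 3′ on the gene's strand, with the words in capitals.
Orc1 (chr4:108579294-108579442, plus strand): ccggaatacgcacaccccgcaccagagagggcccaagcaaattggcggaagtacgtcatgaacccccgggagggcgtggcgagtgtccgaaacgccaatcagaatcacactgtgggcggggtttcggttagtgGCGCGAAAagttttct
Mcm5 (chr8:75109349-75109508, plus strand): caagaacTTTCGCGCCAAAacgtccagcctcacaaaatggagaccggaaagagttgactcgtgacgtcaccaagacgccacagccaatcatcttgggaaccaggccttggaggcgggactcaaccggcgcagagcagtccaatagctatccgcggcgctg
Mcm6 (chr1:128359706-128359865, minus strand): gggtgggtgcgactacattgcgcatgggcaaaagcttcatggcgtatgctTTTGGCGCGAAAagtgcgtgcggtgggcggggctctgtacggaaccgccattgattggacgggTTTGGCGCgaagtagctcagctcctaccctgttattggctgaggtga
Gins3 (chr8:95633399-95633558, plus strand): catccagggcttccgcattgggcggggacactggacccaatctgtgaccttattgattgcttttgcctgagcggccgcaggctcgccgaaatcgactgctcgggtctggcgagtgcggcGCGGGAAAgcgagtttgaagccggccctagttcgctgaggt
Pola1 (chrX:93632156-93632315, minus strand): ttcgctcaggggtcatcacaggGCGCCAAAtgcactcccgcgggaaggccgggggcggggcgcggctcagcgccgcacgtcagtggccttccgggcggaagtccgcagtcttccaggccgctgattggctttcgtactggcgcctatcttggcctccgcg
The Mcm6 window held 2 separate stretches and the other 4 windows 1 each. The word CCAAT was present in 23 of the 36 windows (63.9%, against 41.1% of all genes with a window and 42.3% of those tested) and the GC box GGGCGG in 28 (77.8%, against 38.2% and 65.6%). The word TTTGAA, known from promoters of late cell cycle genes, was present in 5 of the 36 (13.9%, against 20.2% and 14.7%) and in 6 of 9 mitosis genes. These matches describe the letters in the windows and show no binding.

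Total counts per library ran from 17710154 to 25544275, and every member had at least 276 counts in every library, so low depth limited none of them. Library columns were assigned by the sample number ending each GEO description, which differs from the numbering in the titles for 8 of 10 columns. RAG2_deficient replicates 1 and 2 are numbered as in the titles, where the descriptions have 2 and 3. The columns read as spleen held 0 to 0.0418 CPM of Rag1 (CPM is a gene's count scaled to library size) and 111 to 226 CPM of Cr2, a mature B cell receptor, and those read as femoral 141 to 919 CPM of Rag1 and 0.0445 to 4.39 CPM of Cr2. The title and the description of each spleen sample also disagree on which had SAHA; descriptions were followed here, and the other reading would turn round every sign of the SAHA comparison. Rag2 had 20.1 and 13.3 CPM in 2KO, 13.6 and 20.4 CPM in deltaEmu and 21.7 and 23.8 CPM in RAG2_deficient libraries, which is no check of the label because the deleted part was not given in the sources used here. Set against the B cell label, the 10 mature B markers summed to 4227 to 5713 CPM in spleen libraries and to 325 to 692 CPM in femoral ones. Neutrophil and stromal markers (10 and 8 genes) each summed to under 1 CPM in every spleen library, while femoral libraries held 7020 to 21178 CPM and 1222 to 8616 CPM of them. The 9 erythroid markers summed to 1.93 to 5.27 CPM in spleen and 2474 to 15562 CPM in femoral libraries. By these markers the femoral libraries held RNA of other cell types too. The 6 T cell markers summed to 0.401 to 1.92 CPM in spleen and 14.8 to 18.4 CPM in femoral libraries. That sum is no measure of T cells, since Cd4 had the most counts of the 6 in every femoral library. In RAG2_deficient Cd4 had 228 and 271 counts, against 3 and 7 for Cd3d, 4 and 3 for Cd3g and 0 and 0 for Cd3e.

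Libraries of 2 groups stood apart from their partners. The LPS_IL4 pool 6_et_8 had the lowest level of the 4 spleen libraries in 34 of the 43 members, and RAG2_deficient replicate 2 had the lowest of the 6 femoral libraries in 30. The share of all genes with their lowest level in these libraries was not counted. In both pairs the ratio of the libraries followed gene length: Spearman's rho between length and the log2 ratio of pool 4_et_7 over pool 6_et_8 was -0.38 over the 43 members and -0.68 over 8848 expressed genes, and that of RAG2_deficient replicate 1 over replicate 2 was -0.29 and -0.65. The other pairs had weaker trends over all genes, with rho at 0.15 over the members and 0.41 over all genes for LPS_IL4_SAHA (pool 4_et_7 over 6_et_8), -0.24 and -0.36 for 2KO (replicate 1 over 3), and 0.39 and 0.25 for deltaEmu (replicate 5 over 7). These correlations run across genes, which are not independent replicates. Composition differed too. The noncoding RNA Rn7sk held 4.35% of counts in LPS_IL4 pool 4_et_7 and 1.33% in pool 6_et_8. It held 11.8% and 5.83% in RAG2_deficient replicates 1 and 2, and 4.51% and 8.39% in deltaEmu replicates 5 and 7. Gm26917 and Gm42418 together held 1.16% in LPS_IL4 pool 4_et_7 and 4.97% in pool 6_et_8. The part of composition in the members' levels was not tested. Pole, the catalytic subunit of polymerase epsilon and the longest member at 11160 bases, was lower in pool 4_et_7 than in pool 6_et_8, while Rpa3, the smallest RPA subunit and the shortest at 1136 bases, was higher. Medians that rest on these libraries are given with and without them, and with 1 library left out as ranges further below. Single members are given both ways where values in every library are printed and leaving out an LPS_IL4 library ended the call.

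**Figure D1:**
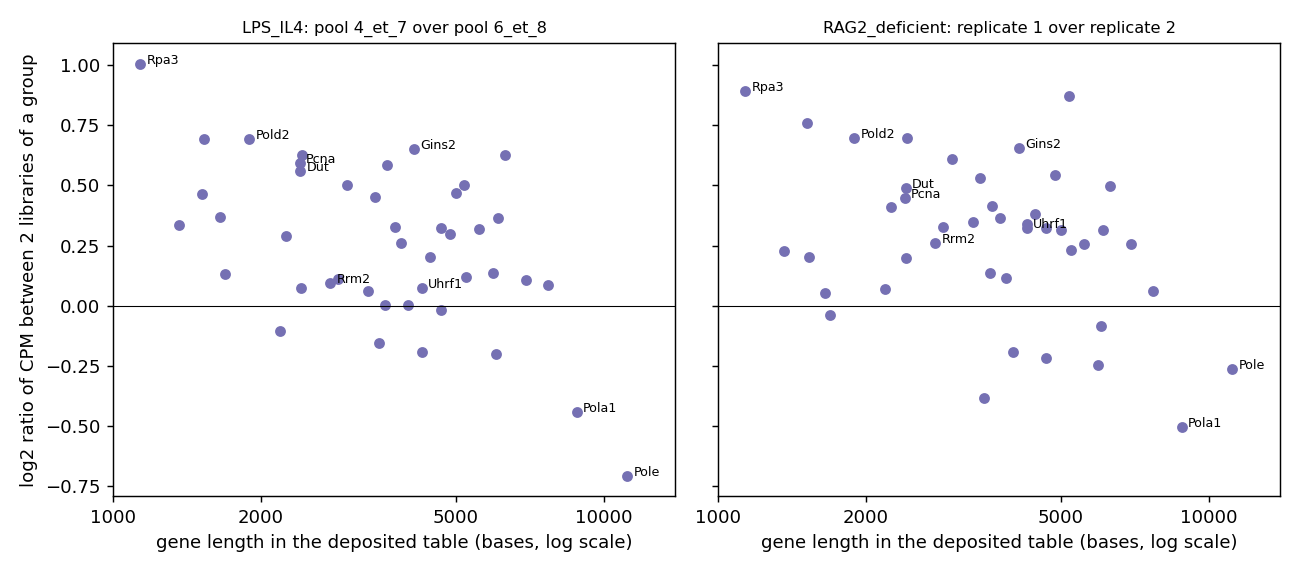
Each point is 1 of the 43 replication genes, with its length in bases on a log axis and the log2 ratio of its CPM between the 2 libraries of a group, LPS_IL4 on the left and RAG2_deficient on the right. Short members such as Rpa3 and Pold2 lie above 0 and the longest, Pole and Pola1, below 0 in both panels.

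Replication genes as a whole were highest in the cultured spleen cells. Summed over the 43 members, the level was 8267 and 9027 CPM in LPS_IL4_SAHA libraries, 8377 and 7268 CPM in LPS_IL4, 5411 and 5883 CPM in 2KO, 5057 and 4517 CPM in deltaEmu and 4741 and 4046 CPM in RAG2_deficient. Every spleen library exceeded every femoral library, and both 2KO libraries lay above the other 4 femoral libraries. By group mean, LPS_IL4_SAHA was highest for 36 members, LPS_IL4 for 5 (Orc1, Mcm4, Pole, Rfc1 and Lig1) and 2KO for 2, the licensing factor Cdt1 and the polymerase subunit Pola1. The lowest mean was in RAG2_deficient for 31 members, in deltaEmu for 11 and in LPS_IL4_SAHA for Pola1. The order of the groups was not counted over all genes. In such bulk samples fewer cells of a type and less RNA per cell cannot be told apart.

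**Figure D2:**
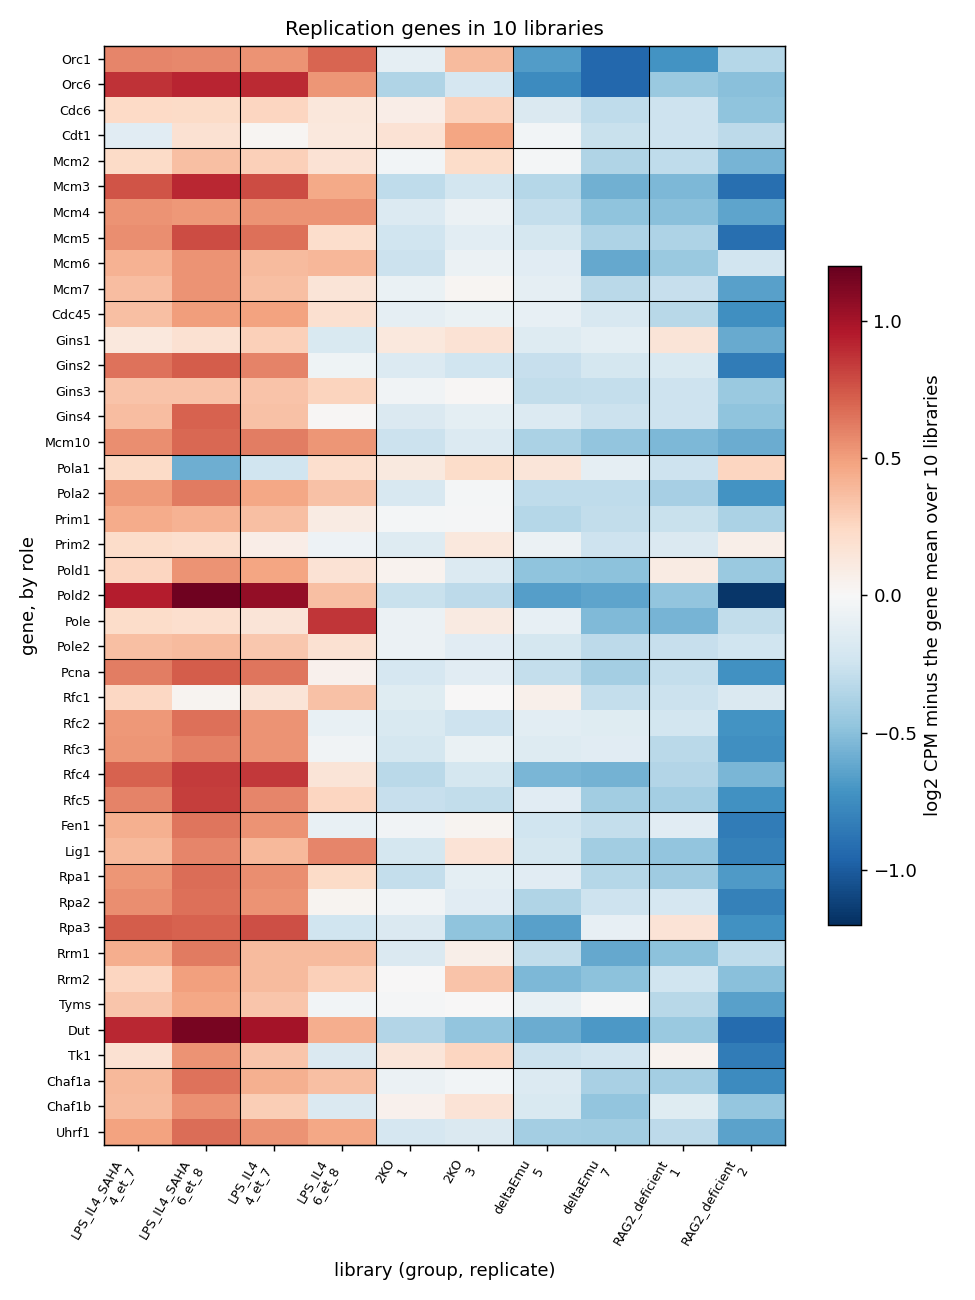
Rows are the 43 replication genes by role, columns the 10 libraries, and colour gives log2 CPM minus the gene's mean over the libraries. The 4 spleen columns on the left are red for most rows and the 6 femoral columns blue, with Cdt1 and Pola1 showing no such split, and the last column of each of the LPS_IL4 and RAG2_deficient pairs is the palest or bluest of its tissue for most rows.

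To set genes side by side, levels were divided by the gene length in the deposited table, which may differ from the length of the transcripts present. Ranks and ratios on this scale rest on those lengths. Pcna stood first in every group, with 279 ± 15.1 CPM per kb in LPS_IL4_SAHA, 227 ± 64.8 in LPS_IL4, 156 ± 4.97 in 2KO, 138 ± 7.96 in deltaEmu and 125 ± 27.2 in RAG2_deficient (mean ± SD, n = 2 each). The lowest member differed between groups, being Gins3 in LPS_IL4_SAHA, Chaf1b in LPS_IL4, Orc1 in deltaEmu and Gins2 in 2KO and RAG2_deficient. The 6 Mcm subunits form a ring with 1 copy of each, yet their transcripts were uneven on this scale: Mcm5 was highest and Mcm2 lowest in all 5 groups, with a ratio of 4.30 in LPS_IL4_SAHA, 3.87 in LPS_IL4 and 2.74 to 3.08 in the femoral groups. Part of each ratio is the deposited length itself, 6956 bases for Mcm2 and 3422 for Mcm5. In LPS_IL4 cells Mcm5 had 148 ± 32.4 CPM per kb and Mcm2 38.3 ± 2.02 CPM per kb, and Mcm4, Mcm3, Mcm6 and Mcm7 lay between them. Among the GINS subunits of the same cells Gins4 had 31.6 ± 5.20 CPM per kb, Gins1 18.4 ± 4.14, Gins2 10.0 ± 3.14 and Gins3 9.96 ± 0.36. Reads of Gins2 may be shared, since 67.3% of its length overlaps exons of Gse1 on the opposite strand and the strand setting of the counting was not given in the sources used here.

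LPS_IL4 spleen cells against the mean of the femoral groups gave the widest differences. At an adjusted p of 0.05 (edgeR's quasi-likelihood test with Benjamini-Hochberg adjustment, as for every adjusted p here), 31 members rose, 0 fell and 12 were not called, where 26.6% of the 17483 genes tested rose and 34.6% fell (61.2% called in all). At an unadjusted p under 0.05 the members numbered 35, where 65% of all genes passed. The members' median log2 fold change was 0.60, a 1.51-fold difference, against -0.15 over all genes tested. In 31 members both LPS_IL4 libraries lay above all 6 femoral libraries, against 25.1% of all genes tested, and in 0 members below, against 34% of all genes. Tissue, culture, stimulus, strain background, genotype (wt against mutants) and the RNA of other cell types in the femoral libraries differ together here and cannot be told apart. With 1 LPS_IL4 library left, assumed to vary like the other groups, the members' median was 0.45 without pool 4_et_7 and 0.84 without pool 6_et_8. Against 2KO alone 11 members rose and 0 fell, with a median of 0.44. In that fit 3820 of the 17483 genes tested rose and 5448 fell.

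**Figure D3:**
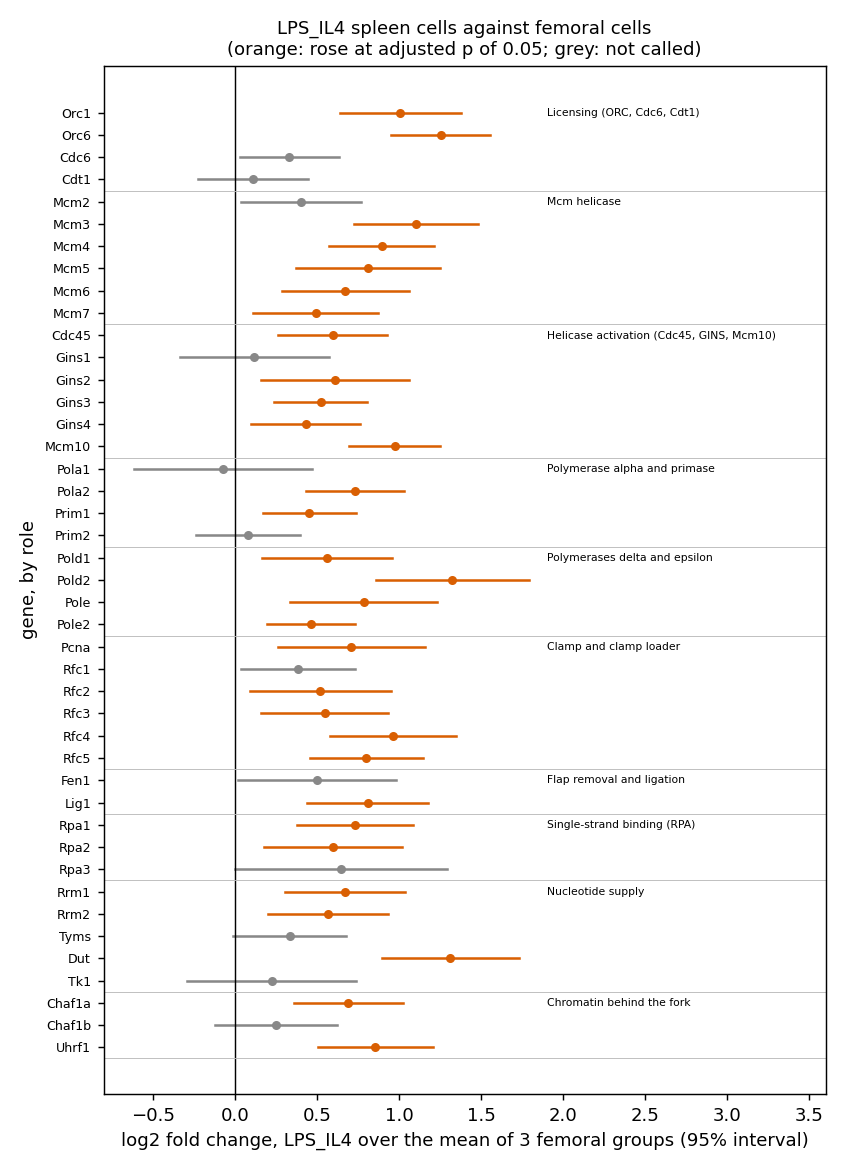
Points give the log2 fold change of LPS_IL4 spleen cells over the mean of the 3 femoral groups for each of the 43 genes, ordered by role, with 95% intervals as bars. Orange members rose and grey members were not called; Pold2 and Dut lie farthest right and Pola1 alone lies left of 0.

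Licensing was mixed, with 2 of 4 members rising. Orc1, the largest subunit of the origin recognition complex, had 46.0 and 45.8 CPM in LPS_IL4_SAHA, 44.8 and 49.8 CPM in LPS_IL4, 28.5 and 40.0 CPM in 2KO, 19.3 and 16.0 CPM in deltaEmu and 18.7 and 24.3 CPM in RAG2_deficient libraries. Every spleen value exceeded every femoral value, and 2KO stood above the other femoral groups. Orc1 rose in LPS_IL4 by a log2 fold change of 1.01 (SE 0.16, adjusted p = 0.0005). Orc6, a second subunit of that complex, had 101 and 104 CPM in LPS_IL4_SAHA, 103 and 80.2 CPM in LPS_IL4, 43.3 and 48.5 CPM in 2KO, 33.0 and 29.0 CPM in deltaEmu and 40.7 and 39.3 CPM in RAG2_deficient, and rose by 1.25 (SE 0.13, adjusted p = 3.40e-05). The loaders did not pass the test. Cdc6 had 106 and 105 CPM in LPS_IL4_SAHA, 107 and 98.4 CPM in LPS_IL4, 94.9 and 109 CPM in 2KO, 79.4 and 72.8 CPM in deltaEmu and 75.5 and 64.3 CPM in RAG2_deficient. Its spleen and 2KO values overlapped, and the log2 fold change was 0.33 (95% interval 0.03 to 0.64, adjusted p = 0.0567). Cdt1 had 47.0 and 58.6 CPM in LPS_IL4_SAHA, 52.4 and 56.4 CPM in LPS_IL4, 58.3 and 71.6 CPM in 2KO, 50.4 and 42.7 CPM in deltaEmu and 43.5 and 41.5 CPM in RAG2_deficient. The highest single value was in a 2KO library, and the difference between tissues was 0.11 (-0.22 to 0.44, adjusted p = 0.548).

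Of the helicase ring, 5 of 6 subunits rose, Mcm3 by 2.15-fold, Mcm4 by 1.86-fold, Mcm5 by 1.76-fold, Mcm6 by 1.59-fold and Mcm7 by 1.41-fold. Mcm5, whose promoter window is printed above, had 544 and 635 CPM in LPS_IL4_SAHA, 585 and 428 CPM in LPS_IL4, 314 and 339 CPM in 2KO, 320.3 and 285 CPM in deltaEmu and 286 and 198 CPM in RAG2_deficient. No spleen value met a femoral one (log2 fold change 0.81, SE 0.20, adjusted p = 0.00508). Mcm2 was the exception, with 266 and 291 CPM in LPS_IL4_SAHA, 276 and 256 CPM in LPS_IL4, 221 and 264 CPM in 2KO, 223 and 176 CPM in deltaEmu and 184 and 154 CPM in RAG2_deficient. Its lower LPS_IL4 value lay below the higher 2KO value, and the difference of 0.40 was not called (95% interval 0.03 to 0.77, adjusted p = 0.0563). Among the activating factors, Cdc45, Gins2, Gins3, Gins4 and Mcm10 rose, with Mcm10 at 0.97 (SE 0.12, adjusted p = 9.44e-05) the farthest, and Gins1 was not called (0.12, 95% interval -0.33 to 0.57). Gins2 had 52.3 and 54.9 CPM in LPS_IL4_SAHA, 50.2 and 32.0 CPM in LPS_IL4, 29.6 and 28.3 CPM in 2KO, 27.5 and 28.8 CPM in deltaEmu and 29.3 and 18.6 CPM in RAG2_deficient. LPS_IL4 pool 6_et_8 was the lowest spleen library for Gins2 and lay just above the highest femoral one. Without pool 4_et_7 neither Gins2 (0.25, adjusted p = 0.360) nor Mcm5 (0.57, adjusted p = 0.0665) was called.

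The polymerases behaved unevenly. In the primer-laying complex Pola2 and Prim1 rose (0.73 and 0.45) while the catalytic subunit Pola1 and the primase subunit Prim2 did not pass the test (-0.07 and 0.08). Pola1 had 198 and 113 CPM in LPS_IL4_SAHA, 144 and 195 CPM in LPS_IL4, 184 and 197 CPM in 2KO, 188 and 157 CPM in deltaEmu and 143 and 203 CPM in RAG2_deficient. The groups overlapped throughout, and the 95% interval of the difference ran from -0.62 to 0.47. With the trend against gene length removed, Pola1 was at 0.48 (adjusted p = 0.0220), 41 members rose and the median of all genes tested moved to 0.13; the cause was not tested. All 4 members of polymerases delta and epsilon (Pold1, Pold2, Pole and Pole2) rose. Pold2, the second subunit of polymerase delta, moved farthest of all 43, with 114 and 134 CPM in LPS_IL4_SAHA, 124 and 76.6 CPM in LPS_IL4, 49.3 and 47.8 CPM in 2KO, 37.5 and 38.3 CPM in deltaEmu and 42.9 and 26.4 CPM in RAG2_deficient. It rose 2.51-fold (log2 1.33, SE 0.21, adjusted p = 0.000392), and its lowest spleen library, pool 6_et_8, was still above all femoral libraries. Pole had 147 and 145 CPM in LPS_IL4_SAHA, 140.5 and 229 CPM in LPS_IL4, 119.8 and 136 CPM in 2KO, 118 and 87.2 CPM in deltaEmu and 85.8 and 103 CPM in RAG2_deficient, and rose by 0.78 (adjusted p = 0.00689). LPS_IL4 pool 6_et_8 stood above all other libraries for Pole, and without it Pole was not called (0.50, adjusted p = 0.0533).

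Pcna, the sliding clamp, had 644 and 695 CPM in LPS_IL4_SAHA, 655 and 435 CPM in LPS_IL4, 365 and 382 CPM in 2KO, 344 and 317 CPM in deltaEmu and 345 and 253 CPM in RAG2_deficient. It rose by 0.71 (SE 0.20, adjusted p = 0.0114) with no overlap between tissues, and was not called without pool 4_et_7 (0.38, adjusted p = 0.182). Of the clamp loader, Rfc2 to Rfc5 rose, with Rfc4 at 0.96 and Rfc5 at 0.80 ahead of Rfc3 at 0.55 and Rfc2 at 0.52, and Rfc1, the large subunit, was not called (0.38, adjusted p = 0.055). Rfc2, Rfc4 and Rfc5 share 15.1%, 12.6% and 10.7% of their length with a gene on the opposite strand, as do Orc1 (10.8%), Chaf1a (18.7%) and Fen1 (78.8%, with a gene of at most 7 counts in any library). Fen1, the flap nuclease, had 194 and 226 CPM in LPS_IL4_SAHA, 210.5 and 137 CPM in LPS_IL4, 141 and 148 CPM in 2KO, 122 and 119 CPM in deltaEmu and 131 and 81.0 CPM in RAG2_deficient. Pool 6_et_8 lay below both 2KO values and above the other femoral libraries, and the difference of 0.50 was not called (95% interval 0.02 to 0.98, adjusted p = 0.0688). Lig1, which seals the nicks, had 209 and 238 CPM in LPS_IL4_SAHA, 209 and 238 CPM in LPS_IL4, 138 and 178 CPM in 2KO, 137 and 119 CPM in deltaEmu and 115 and 90.9 CPM in RAG2_deficient. All 4 spleen values lay above the femoral ones, and Lig1 rose by 0.81 (SE 0.17, adjusted p = 0.002). Of the RPA trimer, Rpa1 and Rpa2 rose (0.73 and 0.60), while Rpa3 was at 0.65 with a wide interval (-0.0022 to 1.29) and was not called.

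Nucleotide supply held both the second largest rise and 2 members that were not called. Dut, which breaks down dUTP, had 283 and 335 CPM in LPS_IL4_SAHA, 302 and 205 CPM in LPS_IL4, 119 and 109 CPM in 2KO, 101 and 94.2 CPM in deltaEmu and 112 and 79.8 CPM in RAG2_deficient. It rose 2.48-fold (log2 1.31, SE 0.19, adjusted p = 0.000203) with the tissues fully apart. Rrm2, the S phase subunit of ribonucleotide reductase, had 337 and 395 CPM in LPS_IL4_SAHA, 366 and 343 CPM in LPS_IL4, 283 and 356 CPM in 2KO, 194 and 200.3 CPM in deltaEmu and 239 and 199 CPM in RAG2_deficient. It rose by 0.57 (SE 0.16, adjusted p = 0.0129), and of the 31 called members it was the 1 whose LPS_IL4 libraries did not both exceed the femoral ones. Without pool 4_et_7 Rrm2 was not called (0.52, adjusted p = 0.0655). Rrm1, its partner subunit, rose by 0.67. Tyms, the thymidylate synthase, had 140.0 and 154 CPM in LPS_IL4_SAHA, 139.8 and 109 CPM in LPS_IL4, 110.4 and 111 CPM in 2KO, 105 and 111 CPM in deltaEmu and 88.3 and 71.0 CPM in RAG2_deficient. Pool 6_et_8 lay among the femoral values, and neither Tyms at 0.34 (adjusted p = 0.0837) nor the salvage enzyme Tk1 at 0.22 (adjusted p = 0.421) passed the test. Uhrf1, which brings the maintenance DNA methyltransferase to the fork, had 543 and 618 CPM in LPS_IL4_SAHA, 563 and 535 CPM in LPS_IL4, 337 and 344 CPM in 2KO, 293 and 291 CPM in deltaEmu and 311 and 249 CPM in RAG2_deficient. It rose by 0.86 (SE 0.16, adjusted p = 0.00106) with no overlap. Of the histone chaperone CAF-1, Chaf1a rose (0.69) and Chaf1b was not called (0.25, 95% interval -0.12 to 0.62).

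Members rose both with and without an E2F word. Of the 14 members with a word 11 rose, with a median log2 fold change of 0.55, and of the 22 without one 15 rose, with a median of 0.66. Among the 5 printed windows, that of Orc1 belongs to the member with the largest log2 fold change (1.01) and that of Pola1 to the one with the smallest (-0.07), and each holds a single stretch.

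Related genes were tested in the same comparison between LPS_IL4 and the femoral groups, in which 26.6% of all genes rose and 34.6% fell. Of 39 further replication factors 21 rose, 1 fell and 17 were not called, with Mtbp, a partner of the origin firing factor Ticrr, at 1.42 and the histone chaperone Nasp at 1.35 having the smallest p-values (adjusted p = 1.08e-05 and 3.92e-05). Gmnn, which blocks Cdt1, rose by 0.61 (adjusted p = 0.0159), and the factor that fell, named after its value was seen, was the nuclease Dna2 (-0.99). Of 19 other nucleotide genes 14 rose, the folate enzymes Shmt1 (2.61) and Mthfd2 (2.50) with the smallest p-values, and 2 fell, the kinases Dck (-1.14) and Tk2 (-0.44), also named after the fact. Of 9 checkpoint genes 5 rose, among them the clamp subunits Rad1 (0.95) and Hus1 (0.94), and 0 fell. The 27 regulators of the entry to S phase went both ways, 8 rising, 14 falling and 5 not called, so that the share that rose was near that of all genes. Ccnd2, a D cyclin induced by B cell activation, rose by 2.65 (adjusted p = 3.79e-06) and Tfdp2, an E2F partner, fell by 3.01 (adjusted p = 1.01e-06). The cyclin-dependent kinase inhibitors Cdkn1a and Cdkn1b fell by 1.59 and 0.89, while E2f1 (0.12, adjusted p = 0.464) and Ccne1 (0.40, adjusted p = 0.0612) were not called. Of 10 mitosis genes 5 rose, among them the mitotic regulators Cdc20 (0.87) and Ccnb1 (0.84), and Mki67 was at -1.05 (SE 0.43, adjusted p = 0.0589).

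Summed levels of the 39 further replication factors (5063 to 5411 CPM in spleen libraries, 3030 to 3777 CPM in femoral ones), the 19 nucleotide genes (3461 to 4126 CPM, against 1478 to 1968 CPM) and the 9 checkpoint genes (313 to 429 CPM, against 243 to 304 CPM) lay higher in every spleen library than in any femoral one. The sums of the mitosis genes and the regulators did not separate the tissues. The 10 mitosis genes summed to 2801 and 2274 CPM in LPS_IL4_SAHA, 2500.4 and 3159.5 CPM in LPS_IL4, 3282 and 4112 CPM in 2KO, 3341 and 2663 CPM in deltaEmu and 2657 and 3319.8 CPM in RAG2_deficient, with spleen and femoral libraries overlapping. The 27 regulators summed to 2705 and 2709 CPM in LPS_IL4_SAHA, 2618 and 3059.6 CPM in LPS_IL4, 2835 and 3140.5 CPM in 2KO, 2560.2 and 2404 CPM in deltaEmu and 2514 and 2491 CPM in RAG2_deficient, again with overlap. Mki67, a marker of dividing cells and the largest part of the mitosis sum in 2KO, had 787 and 367 CPM in LPS_IL4_SAHA, 472 and 1197 CPM in LPS_IL4, 1769 and 2479 CPM in 2KO, 1725 and 1246 CPM in deltaEmu and 1279 and 1995 CPM in RAG2_deficient. The overlap rests on Mki67: the other 9 mitosis genes, summed after its values were seen, came to 1907 to 2028 CPM in spleen libraries and 1325 to 1632 CPM in femoral ones.

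**Figure D4:**
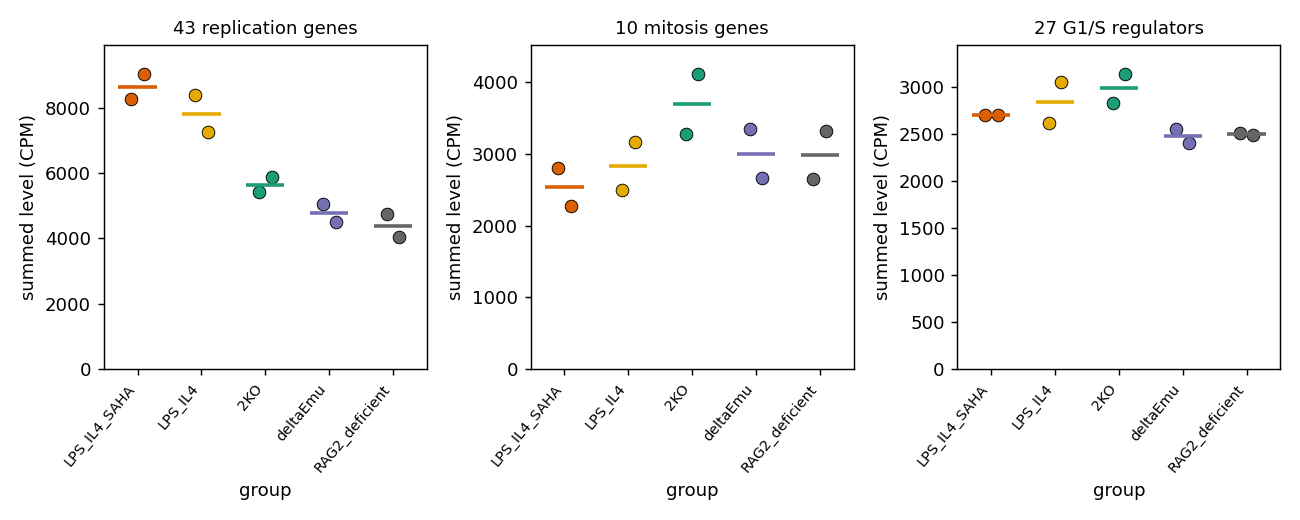
Points are the summed CPM of a gene list in each library and bars the means of the 2 libraries of a group, with LPS_IL4_SAHA and LPS_IL4 spleen cells left of the femoral 2KO, deltaEmu and RAG2_deficient groups. Replication genes separate the spleen from the femoral libraries (7268 to 9027 CPM against 4046 to 5883 CPM), while the regulators of the entry to S phase overlap, as do the mitosis genes, whose 9 members other than Mki67 sum to 1907 to 2028 CPM in spleen and 1325 to 1632 CPM in femoral libraries.

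No replication gene passed the test between LPS_IL4_SAHA and LPS_IL4 cells. LPS_IL4_SAHA against LPS_IL4 gave 0 called members, with 0 of 13913 genes called (0%) and 187 genes (1.34%) at an unadjusted p under 0.05, none of them a member. DESeq2 also called 0 members and 0 genes. The members' median log2 fold change was 0.12, against -0.03 over all genes tested, and ran from -0.38 for Pole to 0.34 for Gins2. All adjusted p-values lay between 0.939 and 0.999. Intervals show the differences that could have been missed, without adjustment for the number of genes: a 2-fold rise lay within the 95% interval of Rpa3 and Gins2 alone, and a 2-fold fall within that of Pola1 and Pole alone. For Mcm5 the interval was -0.50 to 0.86, for Pcna -0.47 to 0.99, for Rrm2 -0.57 to 0.58 and for Cdc6 -0.51 to 0.50.

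Pools differed in what they showed. Taken pool by pool, the median of the members was -0.016 for pool 4_et_7 and 0.36 for pool 6_et_8. Both pools gave a higher level with SAHA for 13 members, where 20.6% of all genes tested did, both a lower level for 0 members, where 15.4% of all genes did, and the other 30 members went opposite ways. Both LPS_IL4_SAHA libraries lay above both LPS_IL4 libraries in 13 members, against 15.7% of all genes, and below them in 0, against 10.1%. Gins2 had 52.3 and 54.9 CPM in LPS_IL4_SAHA, against 50.2 and 32.0 CPM in LPS_IL4, and Pole 147 and 145 CPM in LPS_IL4_SAHA, against 140.5 and 229 CPM in LPS_IL4. In both genes the spread came from LPS_IL4 pool 6_et_8, and the other 3 libraries lay close together. Without LPS_IL4 pool 4_et_7, so that pool 6_et_8 was the only LPS_IL4 library and was assumed to vary like the LPS_IL4_SAHA pair, 3 members were called, Gins2 (0.73) and Rpa3 (0.94) higher and Pole (-0.66) lower, along with 2670 genes. Without pool 6_et_8, 0 members were called and the median was 0.02. The ratio of LPS_IL4_SAHA over LPS_IL4 followed gene length across 8848 genes (Spearman's rho -0.62) and across the members (-0.25). With the length trend removed 0 members were called and their median was 0.14. Cdkn1a, often raised by histone deacetylase inhibitors, was at -0.76 (adjusted p = 0.939) and the other such genes listed, H1f0 at 0.10 (adjusted p = 0.94) and Gsn at 0.42 (adjusted p = 0.939). In the related lists 0 genes were called, with Mki67 at -0.57, E2f1 at 0.00, Ccne1 at 0.04, Cdkn1b at 0.08 and Gmnn at 0.19.

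**Figure D5:**
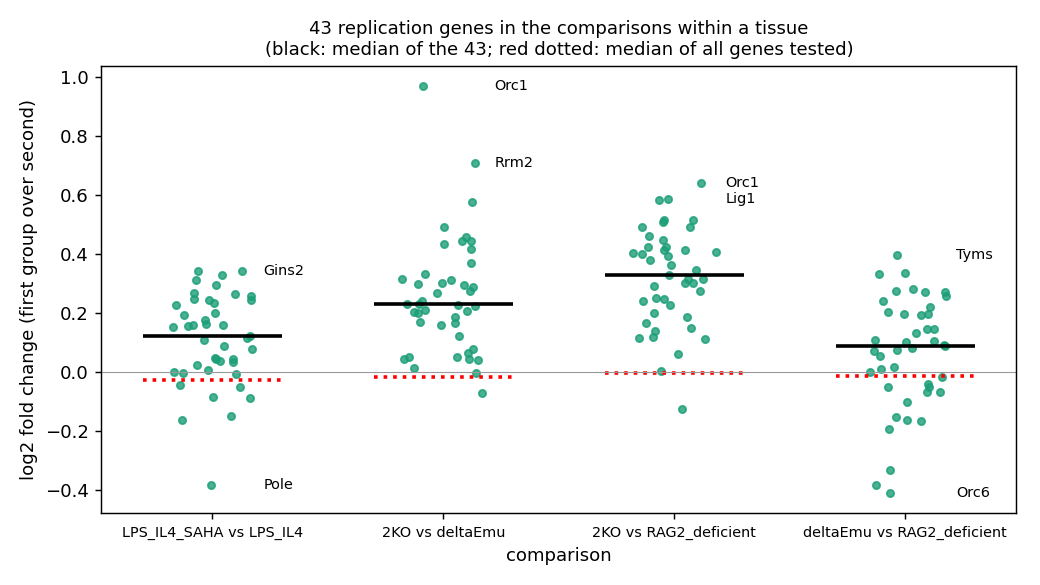
Each green point is 1 of the 43 genes, placed by its log2 fold change of the first named group over the second, with the black bar at the members' median and the red dotted bar at the median of all genes tested. Members' medians are 0.12 for SAHA, 0.23 for 2KO over deltaEmu, 0.33 for 2KO over RAG2_deficient and 0.09 for deltaEmu over RAG2_deficient, and no point passed the test.

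Among the femoral libraries, labelled as B cells but holding RNA of other cell types, those of 2KO tended to the highest levels. Of the 3 femoral groups 2KO had the highest mean for 40 members, and RAG2_deficient the lowest for 31. These orders were not counted over all genes. They lean on single libraries, since 2KO replicate 3 was the highest of the 6 for 32 members and RAG2_deficient replicate 2 the lowest for 30. No single member passed the test in any of the 3 comparisons, which share groups with each other. 2KO against deltaEmu gave 0 called members, where 3.7% of 16538 genes passed it (1.79% upward in 2KO and 1.91% downward). At an unadjusted p under 0.05 there were 6 members (Orc1, Orc6, Rrm2, Cdt1, Cdc6 and Chaf1b), all higher in 2KO, where 15.7% of all genes passed. The median log2 fold change was 0.23, against -0.01 over all genes. In 28 members both 2KO libraries lay above both deltaEmu libraries, against 26.4% of all genes tested. The order was the other way round in 1 member, against 30.6% of all genes. Orc1 differed most, with 28.5 and 40.0 CPM in 2KO, against 19.3 and 16.0 CPM in deltaEmu (log2 fold change 0.97, SE 0.23, 95% interval 0.44 to 1.50, adjusted p = 0.0682). Rrm2 came next, with 283 and 356 CPM in 2KO, against 194 and 200.3 CPM in deltaEmu (0.71, SE 0.21, adjusted p = 0.132). The groups did not overlap for either gene. All 4 licensing genes lay higher in both 2KO libraries, Orc6 at 0.58 (adjusted p = 0.0997), Cdt1 at 0.49 (0.198) and Cdc6 at 0.43 (0.253). Calls depended on the fit, and all were of members higher in 2KO. DESeq2 called Orc1 and Rrm2, where 449 of 27469 genes were called higher and 456 lower. A fit of the 4 libraries alone called Orc1, Orc6, Rrm2 and Tk1, where 775 of 16105 genes were called higher and 805 lower. With either RAG2_deficient library left out of the fit, the members' median stayed at 0.23.

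2KO against RAG2_deficient also gave 0 called members, where 4.31% of genes passed it (1.26% upward in 2KO and 3.05% downward), and 10 at an unadjusted p under 0.05, all higher in 2KO, where 19.2% of all genes passed. The median was 0.33, against -0.00067 over all genes. Both 2KO libraries lay above both RAG2_deficient libraries in 34 members, against 25.5% of all genes, and below them in 0, against 21.7%. Orc1 had 28.5 and 40.0 CPM in 2KO, against 18.7 and 24.3 CPM in RAG2_deficient (0.64, SE 0.23, adjusted p = 0.172), and Lig1 138 and 178 CPM in 2KO, against 115 and 90.9 CPM in RAG2_deficient (0.59, SE 0.20, adjusted p = 0.16). Neither gene's groups overlapped. Cdt1 had the smallest p (0.58, adjusted p = 0.0993). The size of the difference depends on the RAG2_deficient libraries. Without RAG2_deficient replicate 1 the members' median was 0.49, against 0.03 over all genes. Without replicate 2 it was 0.20, against 0.0014. In each of these fits, and in those without a RAG2_deficient library in the next comparison, 1 library stands for RAG2_deficient and is assumed to vary like the other groups.

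deltaEmu against RAG2_deficient showed the members least apart, with 0 called, where 9.81% of genes passed it (4.42% upward in deltaEmu and 5.39% downward). At an unadjusted p under 0.05 there were 2 members, where 25.6% of all genes passed, and the median was 0.09, against -0.01 over all genes. Both deltaEmu libraries lay above both RAG2_deficient libraries in 10 members, against 28.3% of all genes, and below them in 3, against 24.4%. Orc6 had 33.0 and 29.0 CPM in deltaEmu, against 40.7 and 39.3 CPM in RAG2_deficient (-0.41, 95% interval -0.76 to -0.05, adjusted p = 0.142). Tyms had 105 and 111 CPM in deltaEmu, against 88.3 and 71.0 CPM in RAG2_deficient (0.40, 95% interval 0.0025 to 0.79, adjusted p = 0.193). These were the lowest and the highest value, and in each the groups were apart. Without RAG2_deficient replicate 1 the members' median was 0.25, against 0.03 over all genes. Without replicate 2 it was 0.0052, against -0.0042 over all genes. No member's 95% interval in this comparison reached a 2-fold difference, while against deltaEmu and RAG2_deficient the 2KO intervals of Orc1 and Tk1 did, as did that of Rrm2 against deltaEmu and that of Lig1 against RAG2_deficient.

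Markers of other cell types moved with these groups. The 9 erythroid markers tested summed to 10488 and 15562 CPM in 2KO, 2474 and 2615 CPM in deltaEmu and 5742 and 3136 CPM in RAG2_deficient, and 9 of 9 rose in 2KO over deltaEmu and 4 of 9 over RAG2_deficient. The 10 neutrophil markers summed to 11087 and 9245 CPM in 2KO, 18447 and 21178 CPM in deltaEmu and 7020.3 and 7775 CPM in RAG2_deficient. The 10 pro-B markers summed to 1105 and 716 CPM in 2KO, 805 and 1131 CPM in deltaEmu and 2656 and 3024 CPM in RAG2_deficient, and 5 of 10 fell in 2KO and 5 of 10 in deltaEmu over RAG2_deficient. The 10 mature B markers summed to 457 and 325 CPM in 2KO, 678 and 692 CPM in deltaEmu and 537 and 475 CPM in RAG2_deficient. In 2KO over deltaEmu all 10 had negative log2 fold changes, down to -9.58, and 5 were called. Among the 10 is Ighd, a gene of the immunoglobulin heavy chain locus itself. Ighd had 0 and 0 counts in 2KO, 67 and 114 in deltaEmu and 151 and 360 in RAG2_deficient, so its level need not follow cell types. In 2KO over RAG2_deficient 2 rose (Cd74 and Ciita) and 2 fell, and 8 of the 10 had negative log2 fold changes. Ms4a1 had 6 and 6 counts in 2KO, against 18 and 8 in RAG2_deficient, and Cr2 had 1 and 1, against 3 and 3. In deltaEmu over RAG2_deficient 6 rose and 0 fell, and the other 4 had negative log2 fold changes. The 8 stromal markers summed to 1732 and 1222 CPM in 2KO, 2405 and 2529 CPM in deltaEmu and 8616 and 7399.6 CPM in RAG2_deficient, and 7 of 8 fell in 2KO and 8 of 8 in deltaEmu over RAG2_deficient. The 6 monocyte and macrophage markers summed to 3968 and 3487 CPM in 2KO, 6247 and 5553 CPM in deltaEmu and 3535 and 2477 CPM in RAG2_deficient. The part of these cells in the levels of the replication genes was not tested. Of the related lists, the regulator Tfdp2 rose in 2KO over deltaEmu (1.14, adjusted p = 0.0183), the pyrimidine enzyme Cad rose in 2KO over RAG2_deficient (0.77, adjusted p = 0.0454), and Dck, Ccnd1 and Ccnd2 fell in deltaEmu over RAG2_deficient (-0.76, -1.09 and -0.70). Of the mitosis, checkpoint and further replication genes 0 were called in these 3 comparisons.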

How the data were processed

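Total RNA libraries were made from 500 ng of RNA with a stranded kit, per the labels' protocols. The authors deposited raw counts per gene, and the submitters' processing notes name STAR 2.4.0a, featureCounts (Subread 1.4.6-p1) and the mm10 build, with GRCm38 also named. The strand setting of the counting and whether multi-mapped reads were kept were not given in the sources used here. Of 46959 gene entries and 100 control entries, control entries were left out, and 0 sample columns were left unused. Counts were tested with edgeR 4.0.16 (R 4.3.3, limma 3.58.1) by quasi-likelihood F tests after filterByExpr (minimum count 10) and TMM scaling, with Benjamini-Hochberg adjustment over all genes tested. The SAHA comparison was fitted on the 4 spleen libraries, the femoral comparisons on the 6 femoral libraries, and LPS_IL4 against the mean of the femoral groups on all 10 libraries. CPM were put on 1 TMM scale over 10 libraries, and CPM per kb used the deposited gene length. DESeq2 1.42.0, other filters and scalings, single libraries left out, a replicate block and removal of the length trend were the alternatives. Each fit was tested on simulated counts. Total counts ran from 17710154 to 25544275. The members and the gene lists were chosen with earlier results of these data known. Values in every library are given for 12 set members and for the 2 with the largest absolute log2 fold change in each comparison; from other lists the 2 genes with the smallest p were named, with Gmnn, E2f1, Cdkn1a, Cdkn1b, Ccne1, Mki67, H1f0 and Rag2. The labels give the same pools, 4_et_7 and 6_et_8, with and without SAHA. Deviations of SAHA and LPS_IL4 libraries of the same pool had a correlation of -0.467 over 13913 genes. It runs across genes and not across pools, so it cannot show whether the libraries were pairs. The main fit left the pools unpaired, and a fit with the pools as a replicate block is given below. Promoter sequences came from RefSeq (GRCm38.p6), and figures were drawn with matplotlib 3.10.9 in Python 3.11.15.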

Additional observations from a re-analysis of the deposited data

How the results depend on the processing

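Counts below are of genes at an adjusted p of 0.05. Under 13 alternatives of the SAHA comparison, 14 of each femoral comparison and 21 of LPS_IL4 over the femoral groups, no called member turned round, while Pola1 (not called, -0.07) stood at 0.48 in LPS_IL4 over the femoral groups once the length trend was removed. The members' medians kept their sign throughout.

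For LPS_IL4_SAHA over LPS_IL4, 145 genes were called with no filter on low counts. Leaving out 1 library at a time gave 0 to 3 members, a median of 0.02 to 0.29 and 0 to 2670 genes. For 2KO over deltaEmu, DESeq2 called 2 members, no filter 1 and the 4 libraries of both groups alone 4. The genes called were 1537 with no filter, 400 without immunoglobulin, mitochondrial and ribosomal RNA genes, 1580 with the 4 libraries and 373 with protein-coding genes alone, the last chosen after seeing the data, against 612. Leaving out 1 library gave 0 to 4 members, a median of 0.19 to 0.29 and 119 to 1587 genes. For 2KO over RAG2_deficient, no filter called 1 member. The genes called were 1156 with DESeq2, 1971 with no filter and 213 with the 4 libraries alone, against 713. Leaving out 1 library gave 0 to 18 members, a median of 0.20 to 0.49 and 153 to 3222 genes. For deltaEmu over RAG2_deficient, no filter called 3308 genes, against 1622. Leaving out 1 library gave 0 to 10 members, a median of 0.0052 to 0.25 and 259 to 5401 genes.

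For LPS_IL4 over the femoral groups, the median was 0.81 with LPS_IL4_SAHA as the spleen group and 0.44 against 2KO alone. Against 2KO alone 11 members were called, all higher, as were 3820 of 17483 genes. The median was 0.77 against RAG2_deficient alone and 0.91 with the length trend removed, a setting added after seeing the data. Leaving out 1 library gave 18 to 36 members, a median of 0.45 to 0.84 and 9640 to 11317 genes. In all these fits 11 members were called: Dut, Mcm10, Mcm3, Mcm4, Orc6, Pola2, Pold2, Rfc4, Rfc5, Rpa1 and Uhrf1. The cause of these changes was not tested, except that fits of 4 libraries or without a library hold fewer samples. With the pools as a replicate block, 0 members and 0 genes were called in the SAHA comparison and the median was 0.13, as with the crossed pairing. No paired analysis was possible for the other comparisons because the femoral groups share fewer than 2 replicate numbers, and spleen and femoral groups share none.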

Other observations

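A gene named as a pseudogene of Pcna was called between femoral groups, while Pcna itself was not. Pcna-ps2 (chr19:9283238-9284494, plus strand) had 2.43 and 2.98 CPM in 2KO, 25.4 and 22.7 CPM in deltaEmu and 2.55 and 2.08 CPM in RAG2_deficient libraries. The spleen libraries had 5.01 and 5.67 CPM in LPS_IL4_SAHA and 6.88 and 4.74 CPM in LPS_IL4. Both deltaEmu values lay above all other libraries. The log2 fold change of 2KO over deltaEmu was -3.13 (edgeR adjusted p = 0.000513) and that of deltaEmu over RAG2_deficient 3.33 (edgeR adjusted p = 0.000323). It was singled out after its values were seen, and how reads that match both Pcna and Pcna-ps2 were counted was not given in the sources used here.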
